A study of Mus musculus with 12 samples.

Results

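The diet by oxygen interaction in mouse lung is the oxygen response on a 60% fat diet minus the oxygen response on a 10% fat diet, and it is described here across genes. It used all 12 libraries of the study and was tested for 13324 of the 20793 genes in the deposited table, those with at least 1 RPKM (reads mapped per gene, scaled by transcript length and library depth) in 3 or more of the 12 libraries. Whole lungs of C57BL/6J mice, an inbred strain, were flash frozen and their total RNA was sequenced. The 4 groups of 3 were 60% fat with >95% oxygen, 10% fat with >95% oxygen, 60% fat with room air and 10% fat with room air, and every mouse had 12 weeks of 1 of the diets. The labels give no length of exposure, do not make plain whether feeding came before the exposure, and do not say whether a library is 1 animal or a pool. If the libraries of a group come from the same animal or the same pool, the p-values measure technical spread only. The 2 diets differ in more than fat, since the carbohydrate share falls as the fat share rises, so a diet difference is one between whole diets.

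An interaction asks whether a gene answers oxygen to a different extent on the 2 diets. The same number is the diet difference (60% minus 10% fat) under oxygen minus the diet difference in air. A positive value can thus come from a gene that rose more on 60% fat, fell less on it, or differed between the diets in the room air libraries. High oxygen damages the alveolar wall through reactive oxygen species. Lung cells answer it with antioxidant, DNA damage and amino acid stress programmes, while the airway secretory protein and surfactant genes fall. A diet rich in fat feeds fatty acid oxidation, and it can lower lipid synthesis and alter leukocyte numbers in tissues.

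The libraries carried the markers of lung. The club cell gene Scgb1a1 held 17.4% to 24.6% of the summed RPKM in the air libraries and 2.68% to 4.63% in the oxygen libraries. Depth could only be had relative to 1 library, from the steps between low values, and ranged from 0.946 to 1.28 times that library. Median spread within a group was larger in air (log2 SD 0.155 on 60% fat and 0.128 on 10% fat) than in oxygen (0.108 and 0.104). Some libraries stood apart. Replicate 3 of both air groups carried the highest neutrophil marker sums (4438 and 4139 RPKM, against 988 to 1242 in the other air libraries), replicate 3 of 10% fat in oxygen the highest of the oxygen libraries (2200 against 372 to 1022), replicate 3 on 10% fat in air also the highest alveolar macrophage sum (7616 RPKM against 1508 to 3486), and replicate 2 on 60% fat in air carried heat shock genes far above its group. In every group replicate 3 had the highest neutrophil sum and replicate 2 the highest heat shock sum. On 60% and 10% fat the latter were 7094 and 8301 RPKM in air and 3779 and 2959 in oxygen. For these lists the replicate number thus tracked the sum in both exposures, while the pairs below stay within 1 exposure. Same-numbered libraries within an exposure deviated together from their group means. A second fit therefore took them as pairs (6 pairs, 1 level each), here called the paired fit. The labels do not say that a number marks a pair. The pairs were chosen from these same data, and the p-values of the paired fit do not allow for that choice.

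Few genes passed the test for a different oxygen response on the 2 diets. With limma (moderated variances, Benjamini-Hochberg adjustment over all tested genes, two-sided) 5 genes passed an adjusted p under 0.05, which is 0.0375% of those tested. The response was more positive on 60% fat for 4 of them (0.03%), Disp2, Mmp3, Lyve1 and Slc7a1, and more negative for 1 (0.00751%), Sult1a1. All 5 had the same sign on the RPKM scale as on the log2 scale. Their group means change diet order between air and oxygen, so that sign could hardly have differed. Unadjusted p-values under 0.05 were found for 1371 genes, where 666.2 would be expected with no difference at all, 661 more positive (4.96%) and 710 more negative (5.33%). The median 95% interval of a gene, without adjustment, reached 0.37 to either side on the log2 scale. The bar for a call is higher, since p-values are adjusted over all tested genes. An interaction beyond 1 in either direction was found for 104 genes, while 5 genes were called. Interactions well above 0.37 could thus go uncalled at this number of libraries.

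The paired fit called 243 genes (1.82%), 89 more positive (0.668%) and 154 more negative (1.16%), among them all 5 above. After rescaling the libraries without Scgb1a1 its split was 118 and 120. That larger count moved with the libraries and settings used: it was 0, 11 and 8 without oxygen replicate 1, 2 or 3 of both diets, 179, 303 and 48 without air replicate 1, 2 or 3, 8 without a trend of the variance on the mean and 2 without the filter on low values. Of the 243 genes, 142 had the larger diet difference in air and 101 had it under oxygen. Below, "called" alone refers to the fit without pairs, and calls of the paired fit are named as such. Counts within a gene list are to be read beside the shares over all genes. These are 4.96% more positive and 5.33% more negative at an unadjusted p under 0.05. In the paired fit they are 0.668% and 1.16%.

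**Figure D1:**
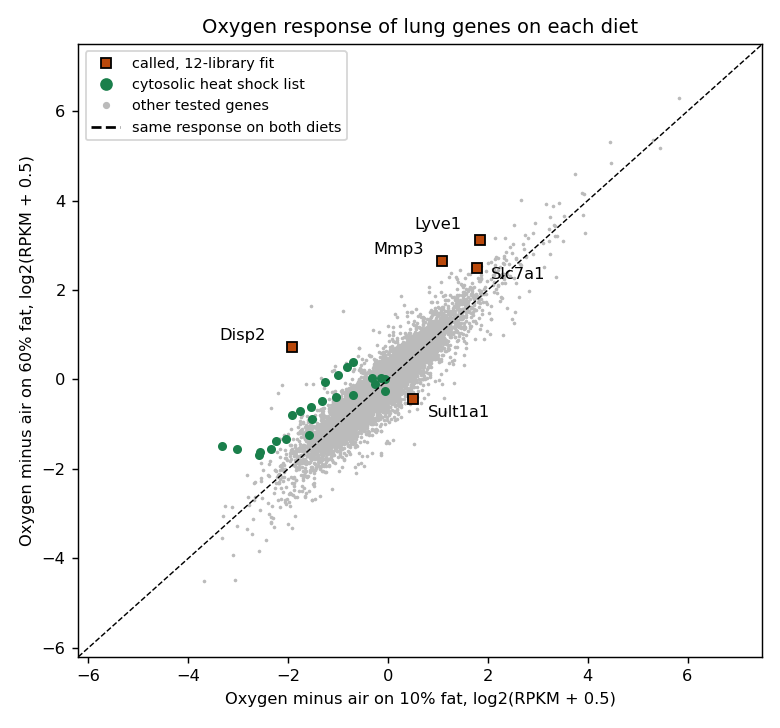
Each point is 1 of the 13324 tested genes, with its oxygen minus air difference on 10% fat (horizontal) and on 60% fat (vertical), both in log2(RPKM + 0.5). Genes on the dashed line answered alike on both diets. Squares are the 5 called genes and green points the cytosolic heat shock list, of which 23 of 24 lie above the line.

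Disp2 had the largest interaction of the called genes, and oxygen moved it in opposite directions on the 2 diets. It encodes a protein of the Dispatched family, named for a relative that releases Hedgehog ligands from cells (chromosome 2, 118605455 to 118620911, in mm8 or mm9 positions). On 60% fat its RPKM was 3.5, 4.19 and 2.67 in air and 7.25, 6.62 and 4.38 in oxygen. On 10% fat it was 8.95, 7.16 and 11.1 in air and 1.85, 2.60 and 1.62 in oxygen. The groups did not overlap within either exposure, with 60% fat the lower diet in air and the higher one in oxygen. Oxygen raised it on 60% fat (log2 0.73, adjusted p = 0.0113) and lowered it on 10% fat (−1.92, adjusted p = 1.31e-05), so that the interaction was 2.65 (95% interval 1.98 to 3.32, adjusted p = 0.0198).

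Mmp3 encodes stromelysin 1, a secreted protease that cuts matrix proteins and activates other matrix proteases (chromosome 9, 7445822 to 7455974). Its RPKM on 60% fat was 11.8, 18.6 and 14.0 in air and 94.5, 88.3 and 97.0 in oxygen. The values on 10% fat were 24.0, 28.4 and 29.6 in air and 53.5, 64.8 and 56.4 in oxygen. It rose with oxygen on both diets, from a lower start to a higher end on 60% fat, with no overlap between the diets at either end. The log2 rise was 2.64 on 60% fat and 1.08 on 10% fat, an interaction of 1.56 (1.13 to 1.99, adjusted p = 0.024).

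Lyve1, the hyaluronan receptor gene of lymphatic vessels and of a subset of tissue macrophages (chromosome 7, 117994121 to 118006467), differed between the diets in air (adjusted p = 0.00552) and did not pass the test under oxygen (adjusted p = 0.927). In air its RPKM was 71.7, 99.0 and 88.5 on 60% fat and 197, 171 and 228 on 10% fat. Under oxygen it was 737, 722 and 779 on 60% fat and 651, 711 and 756 on 10% fat. The air groups lay apart and the oxygen groups overlapped, and every oxygen library stood above every air library. The rise was 3.11 against 1.84 on the log2 scale (interaction 1.28, 0.89 to 1.66, adjusted p = 0.0309). Of the 7 tested lymphatic vessel markers and the 20 tested interstitial macrophage and monocyte markers, no other member was called in this fit. With 0.0375% of all tested genes called, that says little about either list. The list medians were −0.13 and −0.18. In whole lung, fewer cells of a type and less RNA per cell cannot be told apart.

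Slc7a1 encodes a plasma membrane carrier for arginine, lysine and ornithine (chromosome 5, 149138986 to 149211480). Its RPKM in air was 3.87, 3.68 and 4.03 on 60% fat and 5.89, 5.64 and 6.02 on 10% fat. In oxygen it was 23.5, 23.8 and 24.4 on 60% fat and 20.2, 22.3 and 21.5 on 10% fat. The diets crossed over, with narrow groups at each end: the rise was 2.48 on 60% fat and 1.78 on 10% fat on the log2 scale (interaction 0.70, 0.48 to 0.93, adjusted p = 0.0483).

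Sult1a1 encodes a sulfotransferase that conjugates phenols in detoxification (chromosome 7, 133816384 to 133819871). In air its RPKM was 45.4, 46.6 and 50.8 on 60% fat and 41.2, 40.8 and 34.4 on 10% fat. Under oxygen it was 35.0, 33.1 and 36.9 on 60% fat and 59.8, 51.2 and 54.8 on 10% fat. Oxygen lowered it on 60% fat (log2 −0.44, adjusted p = 0.000992) and raised it on 10% fat (0.51, adjusted p = 0.000376), and the groups did not overlap in either exposure. The interaction was −0.94 (−1.22 to −0.67, adjusted p = 0.0282).

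None of the 5 calls held in all 12 fits that leave out 1 library. Disp2 kept its call in 6 of them (adjusted p 0.00937 to 0.11), Mmp3 in 4 (0.00233 to 0.126), Lyve1 in 4 (0.0172 to 0.152), Slc7a1 in 2 (0.0291 to 0.195) and Sult1a1 in 4 (0.0228 to 0.128), while the log2 values stayed within 2.5 to 2.85, 1.42 to 1.73, 1.15 to 1.38, 0.67 to 0.73 and −1.0 to −0.86. The count of calls was 0 without replicate 1 or 2 of 60% fat in oxygen, replicate 1 or 3 of 10% fat in oxygen, replicate 3 of 60% fat in air or replicate 3 of 10% fat in air. It was 1 without replicate 3 of 60% fat in oxygen, 2 without replicate 2 of 10% fat in air, 45 without replicate 2 of 60% fat in air and 41 without replicate 1 of 10% fat in air.

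**Figure D2:**
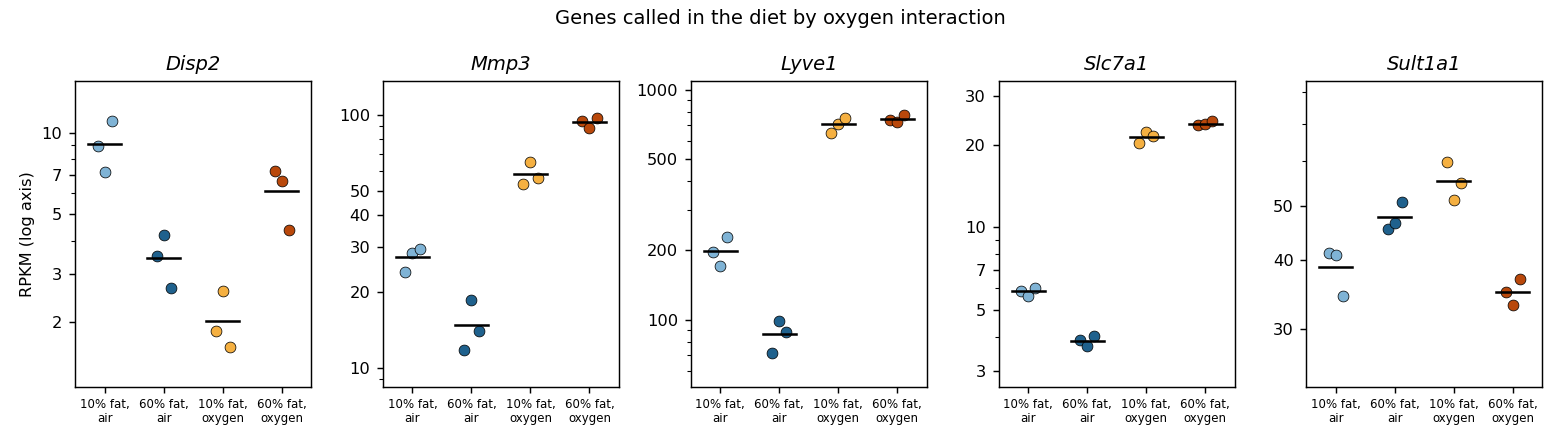
RPKM of the 5 called genes in each library (points, log axis) with the group mean (line), 3 libraries per group. Disp2 and Sult1a1 change order between the exposures with opposite oxygen effects, Mmp3 and Slc7a1 rise on both diets and cross, and Lyve1 differs between the diets in air.

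Behind these, the genes with the smallest p among positive interactions were Slc5a3, Uck2, Nek6, Dbn1, Itga6, Edn1, Synpo, Tnc, Cct6a, Hspd1 and Lama5, with adjusted p from 0.0568 to 0.164 and none called. The paired fit called all of them but Lama5 (adjusted p = 0.0526). Edn1, which encodes the vasoconstrictor endothelin 1, had 20.5, 19.2 and 14.0 RPKM on 60% fat and 22.1, 23.9 and 20 on 10% fat in air. Under oxygen it had 44.6, 41.3 and 36.9 RPKM on 60% fat and 21.9, 27.5 and 17.8 on 10% fat. On 60% fat the oxygen groups stood clear above all other libraries, while on 10% fat the oxygen and air values overlapped (interaction 1.18, 0.68 to 1.68, adjusted p = 0.159, paired fit 0.0217).

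Tnc encodes tenascin C, a matrix glycoprotein laid down in wounds. In air it had 1.21, 1.70 and 1.18 RPKM on 60% fat and 2.72, 1.61 and 3.23 on 10% fat, and under oxygen 12.3, 12.7 and 8.56 against 6.46, 6.45 and 5.20. The diets overlapped in air and lay apart under oxygen, with 60% fat higher (interaction 1.49, 0.84 to 2.14, adjusted p = 0.164, paired fit 0.0425). Dbn1, which encodes the actin-binding protein drebrin, had a like form, with 13.5 to 17.2 RPKM on 60% fat and 7.45 to 8.82 on 10% fat under oxygen and 3.80 to 4.66 over both diets in air (0.87, adjusted p = 0.149, paired fit 0.0309). Itga6, the laminin receptor subunit integrin alpha 6, was lower on 60% fat in air (21.5 to 30.3 against 36.5 to 46.2 RPKM) and higher under oxygen (35.5 to 39.2 against 30.4 to 32.4; interaction 0.88, adjusted p = 0.159, paired fit 0.0263).

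The osmolyte carrier gene Slc5a3, which brings myo-inositol into cells, fell with oxygen on 10% fat from 4.55, 5.21 and 5.14 to 1.81, 1.85 and 1.61 RPKM. On 60% fat it had 2.31, 3.02 and 2.49 RPKM in air and 2.46, 2.23 and 1.93 in oxygen. The 60% fat libraries in air thus lay already near the oxygen level (interaction 1.08, 0.71 to 1.45, adjusted p = 0.0568, paired fit 0.0217). Among other genes that only the paired fit called were Apln (1.35), the gene of the vascular peptide apelin, Col8a1 (1.31), a short-chain collagen of vessel walls, Npr3 (1.38), the natriuretic peptide clearance receptor, Mmp19 (1.34), a matrix metalloproteinase, and Slc26a4 (2.0), the anion exchanger pendrin. The diets lay apart under oxygen for Apln and Col8a1, at 9.69 to 17.1 against 4.52 to 8.35 and 5.56 to 10.4 against 2.06 to 2.48 RPKM. For Npr3 they lay apart in air, at 14.3 to 26.5 RPKM on 60% fat and 50 to 66.6 on 10% fat. Slc26a4 was at 20.1 RPKM in replicate 3 of 10% fat in air and at 0.69 to 7.01 in the other air libraries, with the highest value in a library that also carried a high neutrophil marker sum, whose part in it was not tested.

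The cytosolic heat shock list held the most members called in the paired fit. These chaperones fold proteins in the cytosol and mitochondria and are driven together by heat shock factor 1, which binds inverted repeats of GAA. Of 24 tested members 23 had a positive interaction and 15 an unadjusted p under 0.05, all positive (4.96% of all genes). None was called, and the paired fit called 12, all more positive (0.668% of all genes). The list median was 0.86, beside 0.00 over all genes. The median oxygen effect was −0.55 on 60% fat and −1.42 on 10% fat, and the medians of the diet difference were −0.57 in air and 0.22 under oxygen.

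Promoters are shown for the members that the paired fit called and whose 250 bases before the start hold an inverted GAA repeat. They were picked because they hold a match, and 11 of the 18 members with an entry, Hspd1 among them, hold none in that window. The window runs back from the most upstream listed start of a gene, and matches outside it were not looked for. Hspd1 and Hspe1 lie on opposite strands of chromosome 1. How far the matches printed for Hspe1 lie from the Hspd1 start was not measured. The search read both strands for GAANNTTC and TTCNNGAA, which are their own reverse complements and may overlap, in RefSeq promoters of GRCm38.p6. At least 1 match was found for 7 of the 18 members that have an entry and for 13.0% of all 27025 promoters, and at least 2 matches for 2 members and 1.41% of all. Capitals mark the matches.
Hspe1: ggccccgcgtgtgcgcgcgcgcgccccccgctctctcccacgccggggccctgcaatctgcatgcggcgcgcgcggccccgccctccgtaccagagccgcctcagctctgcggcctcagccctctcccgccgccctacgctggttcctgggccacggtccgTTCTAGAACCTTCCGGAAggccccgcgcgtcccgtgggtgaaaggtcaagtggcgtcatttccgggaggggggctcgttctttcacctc
Hsph1: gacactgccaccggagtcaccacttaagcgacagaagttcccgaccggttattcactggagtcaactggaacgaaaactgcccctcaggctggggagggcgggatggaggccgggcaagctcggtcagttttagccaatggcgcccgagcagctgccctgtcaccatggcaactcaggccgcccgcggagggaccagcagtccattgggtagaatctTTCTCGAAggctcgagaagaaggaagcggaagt
Dnaja1: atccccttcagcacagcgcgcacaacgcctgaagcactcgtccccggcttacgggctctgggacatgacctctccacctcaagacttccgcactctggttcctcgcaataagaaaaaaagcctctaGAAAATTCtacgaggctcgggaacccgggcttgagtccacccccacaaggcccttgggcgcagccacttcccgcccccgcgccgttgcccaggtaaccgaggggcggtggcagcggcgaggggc
The windows lie on chromosome 1 from 55087898 to 55088147 on the plus strand (Hspe1), on chromosome 5 from 149636337 to 149636586 on the minus strand (Hsph1) and on chromosome 4 from 40722218 to 40722467 on the plus strand (Dnaja1). In Hspe1 the 3 matches begin 89, 84 and 79 bases before the start and overlap, in Hsph1 the match begins 33 bases and in Dnaja1 124 bases before it. A match is a run of letters and not a measured site.

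Hsph1, which encodes the large chaperone HSP105 that exchanges the nucleotide of HSP70, had the largest interaction among the members that the paired fit called. In air its RPKM was 57.3, 155 and 73.6 on 60% fat and 155, 225 and 211 on 10% fat. Under oxygen it was 24.2, 46.1 and 26.1 on 60% fat and 16.4, 27.2 and 15.1 on 10% fat. Replicate 2 of 60% fat in air stood at the foot of the 10% fat group and the other 2 libraries far below it (interaction 1.85, 0.78 to 2.92, adjusted p = 0.25, paired fit 0.0217). Hspd1, the mitochondrial chaperonin HSP60, had 84.0, 133 and 94.2 RPKM on 60% fat and 145, 196 and 195 on 10% fat in air, and 130, 145 and 126 against 106, 120 and 100 under oxygen. The diets lay apart in both exposures in opposite order (1.09, adjusted p = 0.164, paired fit 0.0173). Its partner Hspe1, the gene of HSP10, gave 1.09 as well (paired fit 0.0272), and the HSP90 genes Hsp90aa1 and Hsp90ab1 gave 1.11 and 0.85 (0.0217 and 0.0433).

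The heat-inducible HSP70 genes were not called by either fit. Hspa1b had 19.6, 133 and 22.6 RPKM on 60% fat in air and 93.5, 110 and 71.1 on 10% fat in air, with 9.24 to 19.3 under oxygen. Replicate 2 of 60% fat was higher than any 10% fat library, and the other 2 of its group were just above the oxygen range (1.46, adjusted p = 0.555, paired fit 0.189). The summed RPKM of the list showed the same libraries: 3720, 7094 and 4422 on 60% fat and 6227, 8301 and 8261 on 10% fat in air, then 2828, 3779 and 3118 against 2711, 2959 and 2594 under oxygen. Without replicate 2 of 60% fat in air the list median was 1.08 and 9 members were called in the fit without pairs, and without replicate 1 of 10% fat in air 2 were. In the paired fit the 12 became 0, 1 and 1 without oxygen replicate 1, 2 or 3 of both diets, 8, 17 and 8 without air replicate 1, 2 or 3, 0 without the filter and 1 without the trend. At an unadjusted p under 0.05 the paired fit had 17 members more positive, where 8.79% of all genes were more positive and 10.4% more negative at that level.

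Cirbp and Rbm3, RNA-binding protein genes that rise in the cold and fall in heat, were looked up after the heat shock values had been seen, together with the collagen chaperone gene Serpinh1. Cirbp had 35.7, 25 and 27.1 RPKM on 60% fat and 24.8, 17.5 and 15.1 on 10% fat in air, and 102 to 129 in all oxygen libraries. Its diet groups lay apart in air, with 60% fat higher, and overlapped in oxygen (−0.78, adjusted p = 0.293, paired fit 0.0309). Rbm3 gave −0.41 (paired fit 0.0497) with the same arrangement, and Serpinh1 0.93 (0.0433).

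**Figure D3:**
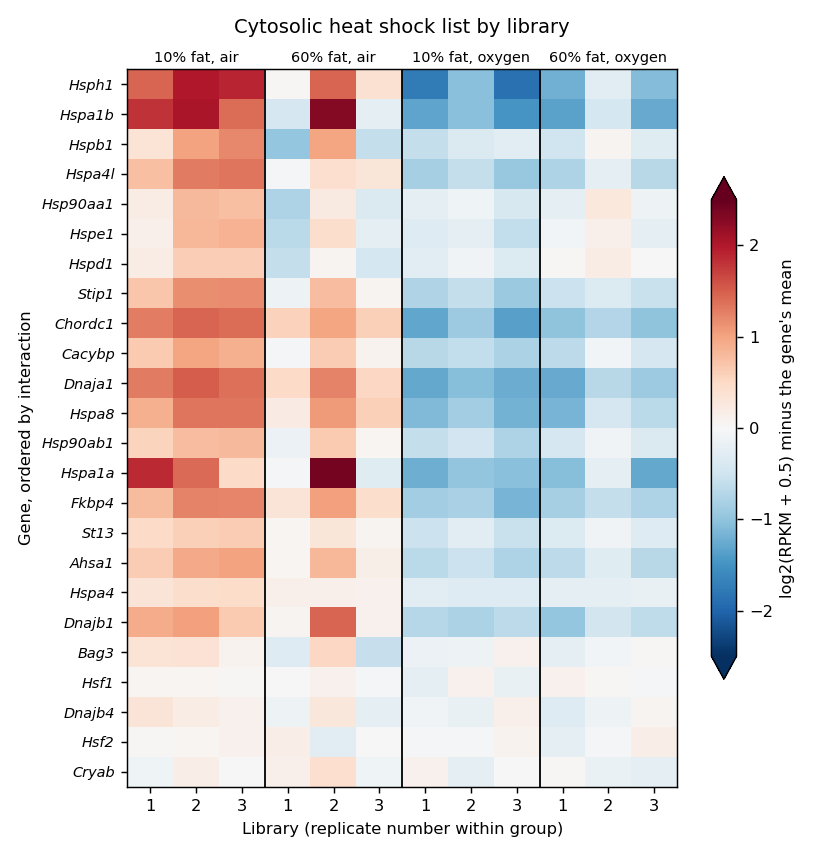
Each row is a gene of the cytosolic heat shock list and each column a library, with colour for log2(RPKM + 0.5) minus the gene's mean over the 12 libraries. The 10% fat libraries in air are high, replicates 1 and 3 of 60% fat in air are lower, replicate 2 of that group is high, and the oxygen libraries are low for most genes.

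Other groups of protein-making genes leaned the same way with smaller values. Of 25 ribosome biogenesis genes all 25 had a positive interaction (median 0.35). An unadjusted p under 0.05 was found for 15 (4.96% of all genes more positive), and none was called. The paired fit called 3 (0.668% of all genes more positive), Nop58, Ddx21 and Wdr12. Nop58, a core protein of the box C/D particles that guide methylation of ribosomal RNA, had 17.8, 17.7 and 18.6 RPKM on 60% fat and 22.6, 19.8 and 22.3 on 10% fat in air. Under oxygen it had 53.9, 53.5 and 55.6 against 46.7, 49.4 and 44.9 RPKM. The diets crossed without overlap at either end (0.46, adjusted p = 0.164, paired fit 0.0465). Ribosomal protein genes themselves did not share that lean: 38 of 40 were negative, with a median of −0.13, and neither fit called any.

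Among 25 amino acid carriers and tRNA synthetases 22 were positive (median 0.24). An unadjusted p under 0.05 was found for 9, all positive (4.96% of all genes), and Slc7a1 was called by both fits. Iars, the isoleucine tRNA synthetase gene, came next with 14.4 to 15.4 RPKM on 60% fat and 17.3 to 19.0 on 10% fat in air and 25.9 to 26.6 against 19.9 to 25.3 in oxygen (0.49, adjusted p = 0.204, paired fit 0.0507). For chaperones of the endoplasmic reticulum 19 of 20 were positive (median 0.39) and 10 had an unadjusted p under 0.05, all positive (4.96% of all genes). The paired fit called 1 (0.668% of all genes more positive), Edem1, which directs misfolded glycoproteins to breakdown (0.46, adjusted p = 0.347, paired fit 0.0468). The best known of these chaperones, Hspa5, the gene of BiP, had 293, 465 and 378 RPKM on 60% fat and 442, 590 and 711 on 10% fat in air, and 337 to 371 in all oxygen libraries. Its diets overlapped in both exposures (0.56, adjusted p = 0.457, paired fit 0.0792). Most of the range of this list was thus in air, with a median diet difference of −0.36 there and 0.02 under oxygen.

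On the negative side the genes with the smallest p after Sult1a1 included St6galnac2, Prrt4, Arrdc2, Ypel3, Slc25a34, Itgb1bp2, Myzap, Hpcal1, Rbfa, Slc2a8, Hdac5, Khk and Ccr7. Their adjusted p ran from 0.0568 to 0.164, none was called, and the paired fit called all 13. They include the fructokinase gene Khk (−0.70), the sugar transporter gene Slc2a8 (−0.65) and the histone deacetylase gene Hdac5 (−0.52). St6galnac2, a sialyltransferase gene of mucin-type sugar chains, had 31.3, 31.6 and 33.0 RPKM on 60% fat and 27.4, 27.7 and 26.8 on 10% fat in air. Under oxygen it had 11.7, 11 and 12.5 against 19.1, 15.7 and 20.8. It fell on both diets, on 60% fat from a higher start to a lower end (−0.85, −1.14 to −0.56, adjusted p = 0.0568, paired fit 0.0173).

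Of 30 genes of fatty acid oxidation and PPAR targets 26 were negative (median −0.27). An unadjusted p under 0.05 was found for 11, all negative (5.33% of all genes). The paired fit called 5 (1.16% of all genes more negative). Among them were the beta-oxidation genes Acaa2 (−0.63) and Hadh (−0.48), the acyl-CoA thioesterase gene Acot1 (−0.76) and the uncoupling protein gene Ucp2 (−0.53). Hadh had 57.6 to 70.1 RPKM on 60% fat and 43.6 to 50.7 on 10% fat in air, and 31.0 to 38.2 over both diets in oxygen. The median diet difference of the list was 0.15 in air and −0.08 under oxygen.

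Lipid synthesis genes did not share 1 direction. Of 22 tested fatty acid synthesis genes 16 were positive and 6 negative (median 0.11), and neither fit called any. At an unadjusted p under 0.05, 3 were positive and 2 negative. The values ran from −0.60 to 0.84, with Scd1 at the upper end. Scd1, the stearoyl-CoA desaturase gene, had 385, 338 and 371 RPKM on 60% fat and 484, 635 and 842 on 10% fat in air. In oxygen it had 227, 220 and 246 against 236, 201 and 239 RPKM, so the diets lay apart in air only (0.84, 0.36 to 1.33, adjusted p = 0.243, paired fit 0.064). Fasn, the fatty acid synthase gene, had an interaction of 0.13 (−0.27 to 0.54, adjusted p = 0.84), and its sign turned without replicate 3 of 60% fat in oxygen. All 22 tested cholesterol synthesis genes were negative (median −0.23) but 1 had an unadjusted p under 0.05, Lss (−0.54), and neither fit called any. Lss, the lanosterol synthase gene, had 21.9 to 30.6 RPKM on 60% fat and 33.6 to 36.6 on 10% fat under oxygen.

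Detoxification genes leaned negative. Of 23 tested cytochrome P450 and detoxification genes 21 were negative (median −0.26) and 7 had an unadjusted p under 0.05, all negative (5.33% of all genes). The paired fit called 2 (1.16% of all genes more negative). Fmo1, a monooxygenase gene that it called and that was named after its value was seen, had 39.5, 46.7 and 52.5 RPKM on 60% fat and 61.7, 68.8 and 79.1 on 10% fat under oxygen. In air it had 181, 147 and 138 against 204, 132 and 103 RPKM, so the diets lay apart under oxygen and overlapped in air (−0.72, adjusted p = 0.427, paired fit 0.0425). Cyp2e1, a P450 of ethanol and solvent oxidation that neither fit called, had 1.03 to 1.27 RPKM on 60% fat and 2.24 to 5.61 on 10% fat under oxygen and 3.99 to 7.01 over both diets in air (−1.29, adjusted p = 0.252, paired fit 0.0878).

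Scgb3a2, a secretoglobin gene of club cells, had 236, 193 and 170 RPKM on 60% fat and 423, 253 and 288 on 10% fat under oxygen. In air its values were 1251, 1724 and 1311 against 1158, 1543 and 1036. The diets overlapped in air and lay apart under oxygen (−0.87, adjusted p = 0.342, paired fit 0.0272). Scgb1a1, the most abundant gene of the air libraries, had 14441 to 16631 RPKM on 60% fat and 21471 to 25154 on 10% fat under oxygen, and 101902 to 179661 in air with overlap (−0.74, −1.58 to 0.11, adjusted p = 0.55, paired fit 0.0582). Over the whole club and secretory list, however, 12 of 17 were negative, with a median of −0.07, and the other 5 were positive. For the surfactant gene Sftpc the interval of the interaction was −1.04 to 0.32 around −0.36, and no alveolar type 2 marker of 22 had an unadjusted p under 0.05 (median −0.05).

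Immediate early genes, which growth factors and stress switch on within minutes, leaned negative: 15 of 20 (median −0.50). An unadjusted p under 0.05 was found for 9, all negative (5.33% of all genes), and none was called. The paired fit called 3 (1.16% of all genes more negative), Fos, Zfp36 and Egr1. Fos, a subunit of the AP-1 transcription factor, had 41.6, 26.8 and 27.6 RPKM on 60% fat and 16.6, 15.7 and 19.5 on 10% fat in air. Under oxygen it had 61.6, 82.4 and 87.8 against 75.5, 95.4 and 147 RPKM. The diets lay apart in air, with 60% fat higher, and overlapped in oxygen, where replicate 3 of 10% fat was the highest library (−1.26, adjusted p = 0.227, paired fit 0.0342). Zfp36, which encodes the mRNA decay factor tristetraprolin, gave −0.83 (adjusted p = 0.243, paired fit 0.0217).

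B cell markers stood higher on 60% fat, by more in air than under oxygen. Of 20 tested markers 19 were negative (median −0.66), 7 had an unadjusted p under 0.05, all negative (5.33% of all genes), and none was called. The paired fit called 3 (1.16% of all genes more negative), Cd79b, Cxcr5 and Faim3. The median diet difference of the list was 1.17 in air and 0.39 under oxygen. Cd79b, a chain of the B cell receptor, had 46.9, 25.2 and 41.1 RPKM on 60% fat and 16.5, 10.9 and 11.3 on 10% fat in air. Under oxygen it had 26.8, 27.2 and 28.2 against 20.4, 26.0 and 17.9 RPKM. The 60% fat group was above the other in each exposure without overlap, by more in air (interaction −1.13, −1.79 to −0.47, adjusted p = 0.25, paired fit 0.0342).

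The B cell marker sum in air was 322, 175 and 275 RPKM on 60% fat and 135, 113 and 107 on 10% fat, and under oxygen 136, 130 and 129 against 91.7, 122 and 87.7. Replicate 2 of 60% fat in air was the lowest of its group, as it was the highest in heat shock genes. Cxcr5, the receptor that draws B cells into follicles, gave −1.19 (adjusted p = 0.252, paired fit 0.0342), and Faim3, the IgM Fc receptor gene, −1.07 (adjusted p = 0.43, paired fit 0.0425). Of 18 tested chemokine and lymphoid recruitment genes 13 were positive (median 0.16). An unadjusted p under 0.05 was found for 4, all negative (5.33% of all genes). The paired fit called 2, both negative (1.16% of all genes). Of these, Ccr7, the homing receptor of lymphocytes and dendritic cells, had 16.3, 11.5 and 15.1 RPKM on 60% fat and 6.01, 5.93 and 6.31 on 10% fat in air, and 7.78 to 9.54 against 6.12 to 7.48 under oxygen (−0.85, adjusted p = 0.164, paired fit 0.0309). The other, Cxcr4, also a homing receptor, gave −0.60 (adjusted p = 0.301, paired fit 0.032). For T and NK cell markers 22 of 25 were negative (median −0.25). An unadjusted p under 0.05 was found for 3, all negative (5.33% of all genes), and neither fit called any.

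**Figure D4:**
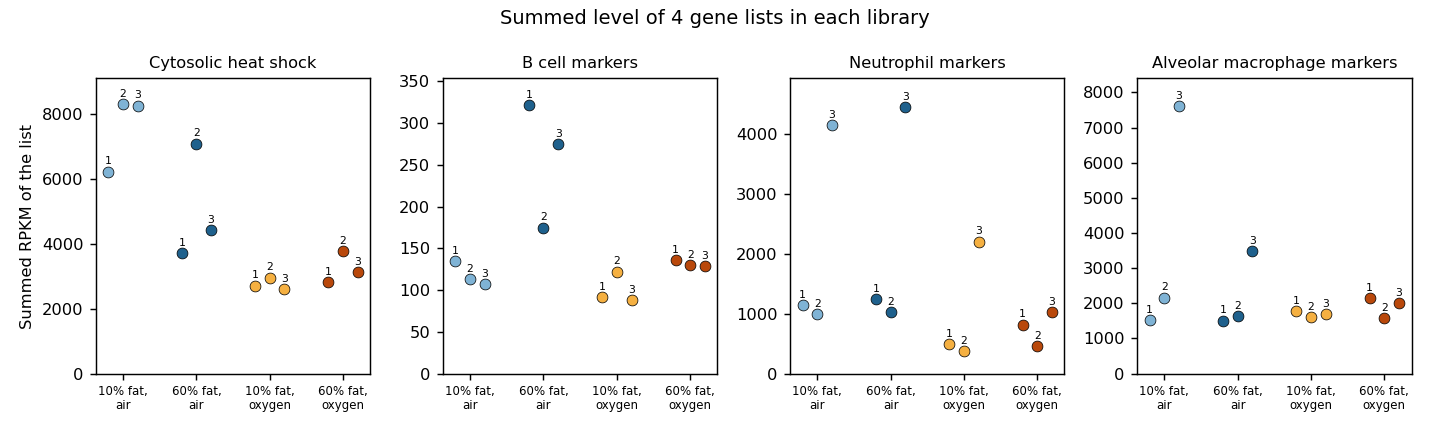
Summed RPKM of 4 gene lists in each library, with the replicate number beside each point and an axis from 0. Heat shock sums are highest on 10% fat in air and in replicate 2 of 60% fat in air, and B cell sums highest on 60% fat in air, with replicate 2 of that group standing toward the 10% fat libraries in both. Neutrophil and alveolar macrophage sums are highest in replicate 3 of the air groups.

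Cardiac muscle genes had a median oxygen effect of −2.91 on 60% fat and −1.86 on 10% fat. In mouse lung such genes can come from the muscle sleeve of the pulmonary veins and from any heart tissue left on the organ. Of 23 tested markers 21 were negative (median −0.83). An unadjusted p under 0.05 was found for 8, all negative (5.33% of all genes), and none was called. The paired fit called 6 (1.16% of all genes more negative): Tnni3, Csrp3, Tnnt2, Myl7, Myh6 and Myl4. Tnni3, cardiac troponin I, had 69.8, 69.3 and 61.7 RPKM on 60% fat and 51.8, 42.7 and 56.5 on 10% fat in air. Under oxygen it had 14.5, 7.17 and 10.9 against 16.5, 12.0 and 18.5 RPKM. The diets lay apart in air and overlapped under oxygen (−0.96, adjusted p = 0.301, paired fit 0.0425). Myh6, the atrial myosin heavy chain, had 2.16, 0.29 and 1.49 RPKM on 60% fat and 4.34, 1.03 and 5.68 on 10% fat under oxygen, and 21.4 to 45.5 in air (−1.42, −2.95 to 0.12, adjusted p = 0.529, paired fit 0.0309). Replicate 2 was the lowest of both oxygen groups for it, and without replicate 2 of 60% fat in oxygen the list median was −0.41. The summed RPKM of the list ran from 561 to 740 in oxygen and from 555 to 863 in air. These ranges overlap although the median member fell strongly, so the sum is carried by members that fell less. Not every member is particular to heart muscle: Pln is also on the smooth muscle list and Ckm on the skeletal muscle list. The part of heart or vein tissue in these values was not tested.

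Endothelial genes had interactions of both signs. Of 27 tested markers 3 had an unadjusted p under 0.05 on the positive side (4.96% of all genes). On the negative side 8 had (5.33% of all genes), and none was called. The paired fit called 1 more positive (0.668% of all genes) and 3 more negative (1.16%). Over the list 18 were negative and 9 positive (median −0.13). Car4, the carbonic anhydrase of alveolar capillaries, had 82.7, 77.8 and 76.9 RPKM on 60% fat and 104, 112 and 119 on 10% fat under oxygen, and 100 to 137 in air with overlap (−0.59, adjusted p = 0.204, paired fit 0.0464). Ramp2, a subunit of the adrenomedullin receptor, had 264 to 323 against 404 to 441 RPKM under oxygen and 411 to 502 in air (−0.51, adjusted p = 0.269, paired fit 0.0737). Erg, an endothelial transcription factor, gave −0.51 as well (adjusted p = 0.307, paired fit 0.0678). Apln, given above, was the positive member that the paired fit called.

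Among fibroblast markers Mfap4, a protein of elastic fibres, stood out in the paired fit. It had 1113, 905 and 685 RPKM on 60% fat and 403, 313 and 329 on 10% fat in air, and 375, 476 and 344 against 266, 294 and 240 under oxygen. The 60% fat group was higher in both exposures without overlap, by more in air (−0.78, adjusted p = 0.301, paired fit 0.0342). Of 23 fibroblast markers 18 were negative, with a median of −0.19.

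Inflammatory genes leaned positive, with wide spread. Of 32 tested 26 were positive (median 0.44), 5 had an unadjusted p under 0.05, all positive (4.96% of all genes), and none was called. The paired fit called 1 (0.668% of all genes more positive), Selp, the adhesion molecule P-selectin (0.73, adjusted p = 0.377, paired fit 0.0465). Timp1, the inhibitor of matrix metalloproteinases, had 161, 159 and 157 RPKM on 60% fat and 102, 99.5 and 75.5 on 10% fat under oxygen, and 10.3, 9.34 and 8.76 against 9.53, 13.1 and 22.0 in air. The diets lay apart under oxygen and overlapped in air, where replicate 3 of 10% fat was the highest (1.34, 0.66 to 2.01, adjusted p = 0.169, paired fit 0.064). Cxcl5, a neutrophil attractant, had 5.43 to 12.1 against 3.74 to 4.55 RPKM under oxygen, but 1.49 to 6.79 against 1.72 to 23.8 in air (2.44, adjusted p = 0.436). Without replicate 3 of 10% fat in air, which also held 1 of the highest neutrophil sums, the median of this list was 0.08, the lowest of the 12 fits that leave out a library. Whether the leukocyte content of that library bears on these genes was not tested.

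No NRF2 or p53 target was called, and the paired fit called 1 of each list, beside 1.82% of all genes. A count of 1 thus says little about either list. At an unadjusted p under 0.05, 4.96% of all genes were positive and 5.33% negative. Of 30 NRF2 targets 4 had a positive and 1 a negative interaction at an unadjusted p under 0.05 (median 0.11), and the paired fit called Gclc, the catalytic subunit of glutathione synthesis. Gclc rose from 76.9, 79.1 and 79.0 to 848, 920 and 806 RPKM on 60% fat and from 95.1, 115 and 164 to 668, 718 and 723 on 10% fat. The diets lay apart at both ends (0.92, adjusted p = 0.169, paired fit 0.0425). Of 23 p53 targets 4 were positive and 3 negative at that level, the median was 0.00, and the paired fit called Sesn1, a stress-induced inhibitor of mTORC1 signalling, which was lower on 60% fat under oxygen (37.9 to 55.8 against 58.5 to 86.4 RPKM) and higher in air (20 to 23.5 against 14.6 to 18.3; −0.91, adjusted p = 0.227, paired fit 0.0309). Gdf15, a stress cytokine, rose with oxygen from 3.04 to 15.8 RPKM in air to 326 to 469 RPKM, and its interaction was 0.46 (−0.85 to 1.78, adjusted p = 0.829). Its sign turned without replicate 3 of 10% fat in air, the library at 15.8 RPKM. The metallothionein gene Mt2 gave 0.86 (−0.04 to 1.75, adjusted p = 0.513), and Cldn4, a tight junction gene induced in injured alveoli, 0.05 (−0.32 to 0.41, adjusted p = 0.94).

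Several lists not described above had medians as far from 0 as some that were. All 10 platelet markers were negative (median −0.28), as were all 7 tested skeletal muscle markers (−0.32), and the medians were 0.25 for metallothioneins and iron genes and 0.22 for alveolar macrophage markers. Other medians were 0.16 for ATF4 targets, 0.01 for the proteasome, −0.10 for the respiratory chain, 0.05 for cell cycle genes, 0.09 for clock genes, 0.06 for interferon-stimulated genes and −0.10 for ciliated cell markers, with no member called in the fit without pairs. Of these lists the paired fit called 1 cell cycle gene, Ccnd1 (cyclin D1, 0.51, adjusted p = 0.164, paired fit 0.0342), and 1 clock gene, Per1 (−0.50, adjusted p = 0.525, paired fit 0.0342, with 1 library of 60% fat in air missing), both named after their values were seen. Over all tested genes 6696 interactions were positive and 6628 negative. Under each of the 3 other scalings the medians of the heat shock, ribosome biogenesis, endoplasmic reticulum, amino acid and inflammatory lists stayed positive. Those of the B cell, cardiac, fatty acid oxidation, detoxification, cholesterol and immediate early lists stayed negative. Median-ratio scaling and rescaling without Scgb1a1 divide each library by 1 number. They put the median over all genes at 0.008 and 0.031, shifts too small to turn these signs. The genes and lists were chosen with earlier results of these data known, so their counts describe and do not test.

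**Figure D5:**
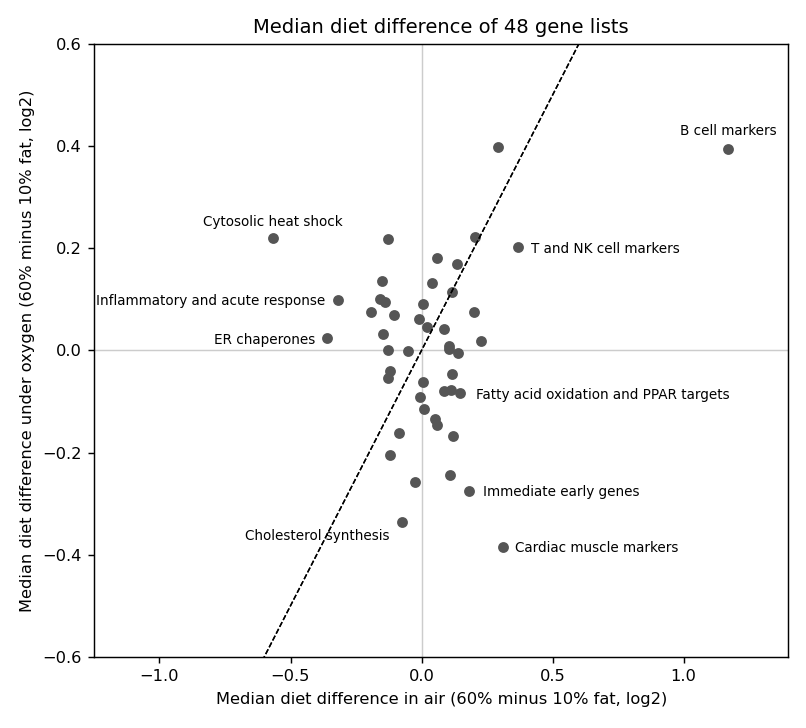
Each point is 1 of 48 gene lists, with the median diet difference (60% minus 10% fat, log2) of its tested members in air (horizontal) and under oxygen (vertical). Lists on the dashed line differ equally in both exposures. The heat shock list lies above the line (−0.57 in air, 0.22 under oxygen), and the B cell (1.17, 0.39) and cardiac muscle (0.31, −0.38) lists below it.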

How the data were processed

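RPKM values per gene and library were used as the authors deposited them, in 1 table; no counting tool is named in the labels or the table. Per the submitters' processing notes, bcl2fastq 2.19 and TopHat2 2.0.11 were used and the builds mm8 and mm9 are named without a role, so gene positions are in 1 of these. Genes with a low-data status (208) were left out, and 85 values in 26 genes with a failed status were treated as missing. The table gives no read counts, so absolute depth is unknown. Values were taken as log2(RPKM + 0.5), which understates changes of low genes, for genes with at least 1 RPKM in 3 or more libraries.

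A mean per group was fitted to all 12 libraries with limma 3.58.1 in R 4.3.3 (variances moderated with a trend on the mean, two-sided, Benjamini-Hochberg adjustment over all 13324 genes, threshold 0.05). The code was also run on simulated data, in which a gene had the same spread in every group and no library stood apart. Those settings differ from these data, so that run does not vouch for the calls here. Deviations from the group means correlated at 0.293 to 0.486 for the 6 same-numbered pairs within an exposure and at −0.304 to 0.0102 for the 12 other pairs within an exposure. Deviations within a group add to 0, so positive values for the former partly force negative values for the latter. Across exposures same-numbered libraries correlated at −0.131 to 0.22. The pairing comes from these correlations, since the labels do not say what a number marks, and the paired fit adds a replicate block of 6 levels.

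Named genes were up to 15 per direction by the largest called values and then the smallest p, the same by the paired fit, up to 4 members and all called members of a described list, and a fixed set of well-known genes. Predicted or unnamed genes were not named. A few genes that the rule selects are not reported here. The contrast, genes and lists were chosen with earlier results of these data known. Alternatives varied the pseudocount, filter, scaling, variance model, block and libraries. Promoters came from RefSeq tables of GRCm38.p6. Figures used matplotlib 3.10.9.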

Additional observations from a re-analysis of the deposited data

Results flagged for a closer look

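The test of the difference itself, the limma interaction between diet and oxygen, picked out 5 genes. On the log2 scale the oxygen response on 60% fat minus that on 10% fat was 2.65 for Disp2, 1.56 for Mmp3, 1.28 for Lyve1, 0.70 for Slc7a1 and −0.94 for Sult1a1.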

How the results depend on the processing

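The count of 5 genes was 4 to 6 under both other pseudocounts, the filter at 5 RPKM, no filter, median-ratio scaling, quantile normalization, no trend and robust variances. It was 8 with at least 1 RPKM in all 12 libraries, 3 after rescaling without Scgb1a1 and 368 with sample weights. With a replicate block it was 243 (6 levels), 17 (3 levels) and 355 (random effect). Leaving out 1 library gave 0 to 45. The paired count of 243 was 2 without the filter, 8 without the trend and 678 with sample weights, all added after seeing the data, as were the fits without a pair, which gave 0, 11 and 8 without oxygen replicate 1, 2 or 3 and 179, 303 and 48 without air replicate 1, 2 or 3. The cause of these shifts was not tested. The 5 genes kept their sign in all 26 alternatives. Outside the fits that leave out a library, calls ended for Mmp3 under quantile normalization (adjusted p = 0.0513), Lyve1 without the filter (0.0622) and with median-ratio scaling (0.0712), Slc7a1 with pseudocount 1 (0.0601), rescaling without Scgb1a1 (0.107) and robust variances (0.0519), and Sult1a1 with that rescaling (0.0585), by limma. Signs turned for Sftpc under quantile normalization (0.000165) and, with 1 library left out, for Fasn (range −0.0038 to 0.27), Gdf15 (−0.19 to 0.81) and Cldn4 (−0.044 to 0.17, below 0 in 4 fits). With 3 libraries per group, interactions under about 0.37 were below the median interval.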
